A study of Mus musculus with 17 samples.

Results

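The genes described here are Abcb4, Abcb9, Abcc4 and Abcg2, the 4 genes with an Abc symbol among the 988 genes of a targeted immuno-oncology RNA panel. They were chosen by gene symbol and followed through all 17 libraries of mouse colon. The panel (QIAseq) amplifies a short stretch of each chosen transcript by multiplex PCR, so counts of different genes depend on their amplicons and are not compared with one another as levels. Every mouse had received azoxymethane (AOM), a carcinogen that gives rodents colon tumors, by intraperitoneal injection. Kit-B6 mice are C57BL/6 animals, and Kit-W/sh mice carry W-SASH, an inversion upstream of Kit that leaves adults short of mast cells. Tumors were taken at postnatal week 32, after 6 injections over 6 weeks and a further 18 weeks, from Kit-B6 (n = 6) and Kit-W/sh (n = 6). Preneoplastic colon was taken at postnatal week 14, after 3 injections over 3 weeks and a further 3 weeks, from Kit-B6 (n = 3) and Kit-W/sh (n = 2). The stage of the tissue therefore cannot be told apart from age, the number of injections and the time since the last one, and no group without AOM was analysed here.

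ABC transporters are membrane proteins that use the energy of ATP to move substrates across a membrane. Abcc4 (MRP4) exports cyclic nucleotides, prostaglandins and conjugated compounds from cells, and Abcg2 (BCRP) exports urate, porphyrins and many drugs and dietary compounds at the luminal face of the gut epithelium. Abcb9 (TAPL) carries peptides into lysosomes and is a relative of Tap1 and Tap2, which load peptides for MHC class I. Abcb4 (MDR2) moves phosphatidylcholine into bile and is best known in the liver.

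Library totals ran from 616009 to 1399902 counts, and the preneoplastic libraries, at 616009 to 815973, were among the shallower ones. Levels are given as CPM, the counts of a gene relative to its library's total after edgeR's trimmed mean of M-values scaling. A count of 3, taken as the floor, equalled 2.14 to 5.5 CPM depending on the library, and floors and counting intervals cover counting error only. Epcam, the 1 measured gene of 14 on the epithelial list, lay between 22175 and 34599 CPM in all 17 libraries. Kit ran from 93.7 to 473 CPM in Kit-B6 tumors and from 48.9 to 258 CPM in Kit-W/sh tumors. The library labelled Kit-W/sh tumor 2 went against its label, with 460 CPM of the mast cell protease Cpa3 (596 counts), and the members' main differences are also given without it.

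Abcc4 was the member with the largest difference between stages, and it was higher in tumors of both genotypes. In preneoplastic colon it stood at 248, 132 and 143 CPM in the 3 Kit-B6 libraries (174 ± 63.7, SD, n = 3) and at 235 and 219 CPM in the 2 Kit-W/sh libraries (227 ± 11.5, SD, n = 2). In Kit-B6 tumors the lowest value was 1336, the median 2813 and the highest 4335 CPM (2798 ± 989, SD, n = 6). In Kit-W/sh tumors the lowest value was 1740, the median 2345 and the highest 3603 CPM (2491 ± 674, SD, n = 6). Every tumor lay above every preneoplastic library, so the stages did not overlap in either genotype. The rise was 16.1-fold in Kit-B6, a log2 difference of 4.01 ± 0.38 (SE; 95% interval 3.21 to 4.8; edgeR adjusted p = 3.35e-06). It was 11-fold in Kit-W/sh, a log2 difference of 3.46 ± 0.44 (SE; 95% interval 2.53 to 4.38; edgeR adjusted p = 0.000136).

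Abcg2 went the other way. It stood at 1793, 1085 and 1685 CPM in Kit-B6 preneoplastic colon (1521 ± 382, SD, n = 3) and at 1546 and 1456 CPM in Kit-W/sh preneoplastic colon (1501 ± 63.9, SD, n = 2). Kit-B6 tumors ran from 196 to 616 CPM with a median of 253 (351 ± 186, SD, n = 6). Kit-W/sh tumors ran from 130 to 382 CPM with a median of 264 (259 ± 110, SD, n = 6). All 12 tumors lay below all 5 preneoplastic libraries. The fall was 4.33-fold in Kit-B6, a log2 difference of -2.12 ± 0.39 (SE; 95% interval -2.94 to -1.29; edgeR adjusted p = 0.00061). It was 5.79-fold in Kit-W/sh, a log2 difference of -2.53 ± 0.43 (SE; 95% interval -3.43 to -1.63; edgeR adjusted p = 0.000521). Without the library labelled Kit-W/sh tumor 2, the Kit-W/sh differences were 3.51 for Abcc4 and -2.68 for Abcg2, and both kept their calls (adjusted p = 0.000103 and 0.000412). In these bulk samples, fewer cells of a type and less RNA per cell cannot be told apart.

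Such calls were common on this panel. In Kit-B6, 2 of the 4 members passed the test, 1 in each direction, against 41.1% of the 869 genes tested (22.2% higher and 18.9% lower in tumors). In Kit-W/sh, 3 of the 4 passed, with Abcc4 and Abcb9 higher and Abcg2 lower, against 39.7% of the same genes (20.9% higher and 18.8% lower). Stages did not overlap for 2 of 4 members in Kit-B6 and for 3 of 4 in Kit-W/sh, where 29.3% and 58.2% of the genes tested did not overlap. By size, the Abcc4 difference in Kit-B6 ranked 25 from the top among the 869 genes, and by p-value it ranked 2. The median difference over all genes was 0 in Kit-B6 and 0.08 in Kit-W/sh on the log2 scale.

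**Figure D1:**
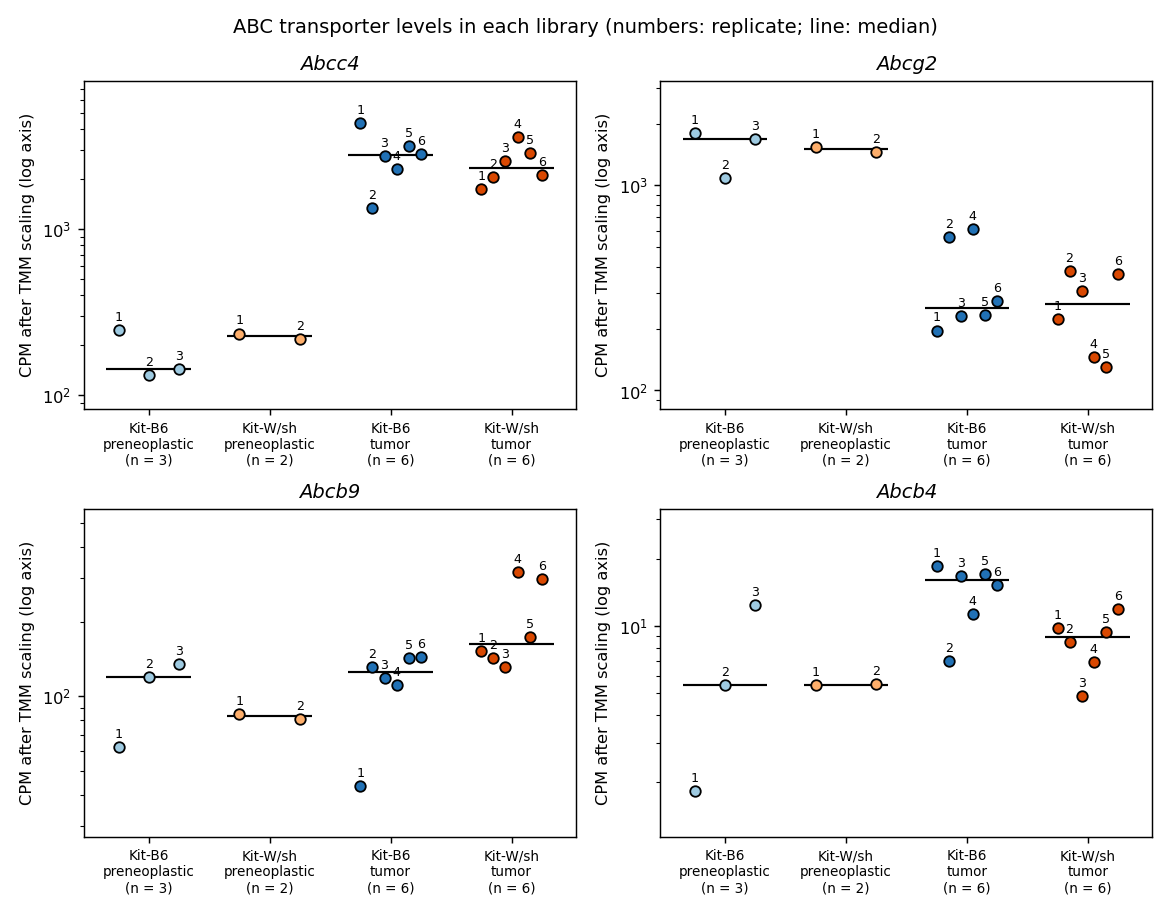
Level of each ABC transporter in every library, in CPM on a log axis, with a panel per gene, a column per group, a point per library numbered by replicate, and a line at the group median. Abcc4 tumors (1336 to 4335 CPM) all sit above the preneoplastic libraries (132 to 248 CPM), Abcg2 tumors (130 to 616 CPM) all sit below them (1085 to 1793 CPM), and the Abcb9 and Abcb4 groups lie closer together.

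The promoter windows of the 2 genes that moved in opposite directions are shown because these members carried the stage difference. RefSeq (GRCm38.p6) holds windows from 250 bases before to 50 bases after a gene's start, all 4 members matched by symbol, and the window with the most CpG pairs is printed of 2 for Abcc4 and of 3 for Abcg2. The Abcc4 window lies at chr14:118706170-118706469 on the minus strand and the Abcg2 window at chr6:58640296-58640595 on the plus strand, both 5′ to 3′. These coordinates belong to GRCm38.p6 and not to mm9, the build named in the submitters' processing notes. Capitals mark GC boxes (GGGCGG), an E-box (CACGTG) in Abcc4 and a cyclic AMP response element (TGACGTCA) in Abcg2, each searched on both strands.
Abcc4: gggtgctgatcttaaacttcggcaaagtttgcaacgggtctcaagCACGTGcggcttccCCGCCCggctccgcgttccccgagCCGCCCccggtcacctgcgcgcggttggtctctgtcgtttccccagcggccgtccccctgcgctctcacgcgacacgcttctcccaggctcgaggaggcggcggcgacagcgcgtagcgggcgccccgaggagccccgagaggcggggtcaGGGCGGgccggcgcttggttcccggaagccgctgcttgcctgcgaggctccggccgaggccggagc
Abcg2: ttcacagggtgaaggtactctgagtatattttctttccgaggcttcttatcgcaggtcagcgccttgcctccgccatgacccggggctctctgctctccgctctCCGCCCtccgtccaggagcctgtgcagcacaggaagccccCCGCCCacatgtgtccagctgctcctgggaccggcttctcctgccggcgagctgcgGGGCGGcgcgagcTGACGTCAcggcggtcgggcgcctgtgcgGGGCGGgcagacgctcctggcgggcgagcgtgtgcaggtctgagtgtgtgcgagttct

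Both printed windows were picked for having the most CpG pairs of their gene, which favours a high rank among all windows. The other Abcc4 window held 6 CpG pairs, more than 43.6% of windows. The other Abcg2 windows held 10 and 3, more than 56.5% and 23.3% of windows. The Abcc4 window held 41 CpG pairs, more than 96.5% of the 32851 windows in the table, and its GC content was 72.7%. The Abcg2 window held 28 CpG pairs, more than 85.8% of windows, and its GC content was 67.0%. Abcc4 had 3 GC boxes and Abcg2 had 4, a motif found in 35.7% of all windows. The E-box of Abcc4 was 205 bases before the start and is found in 7.15% of windows. The cyclic AMP response element of Abcg2 was 37 bases before the start and is found in 1.79% of windows. Neither printed window held TATAAA, which 13.6% of windows hold. The other Abcg2 windows each held 1 match of it, at 1 and 41 bases after the start. A match is a stretch of letters and not a measured binding site.

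The ratio of 2 genes within a library does not depend on how libraries were scaled. Abcc4 counts per Abcg2 count were 0.138, 0.122 and 0.0846 in Kit-B6 preneoplastic colon and 0.152 and 0.15 in Kit-W/sh preneoplastic colon. In Kit-B6 tumors the ratio was 22.1, 2.39, 12.1, 3.75, 13.6 and 10.5, and in Kit-W/sh tumors it was 7.84, 5.39, 8.4, 24.8, 21.9 and 5.72. The ratio was higher in every tumor than in every preneoplastic library. Because the 2 genes have different amplicons, a ratio below or above 1 does not say which transcript was more abundant. The mean log2 ratio rose by 6.21 between stages in Kit-B6 (74.2-fold) and by 6.07 in Kit-W/sh (67.3-fold). Leaving out each library in turn gave 5.93 to 6.57 and 5.81 to 6.26. Per count of Epcam, Abcc4 was 15.6-fold higher in Kit-B6 tumors and 11.3-fold higher in Kit-W/sh tumors than in preneoplastic colon. Abcg2 per count of Epcam was 4.75-fold and 5.95-fold lower. These ratios use the same counts as the tests above and are given as descriptions.

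**Figure D2:**
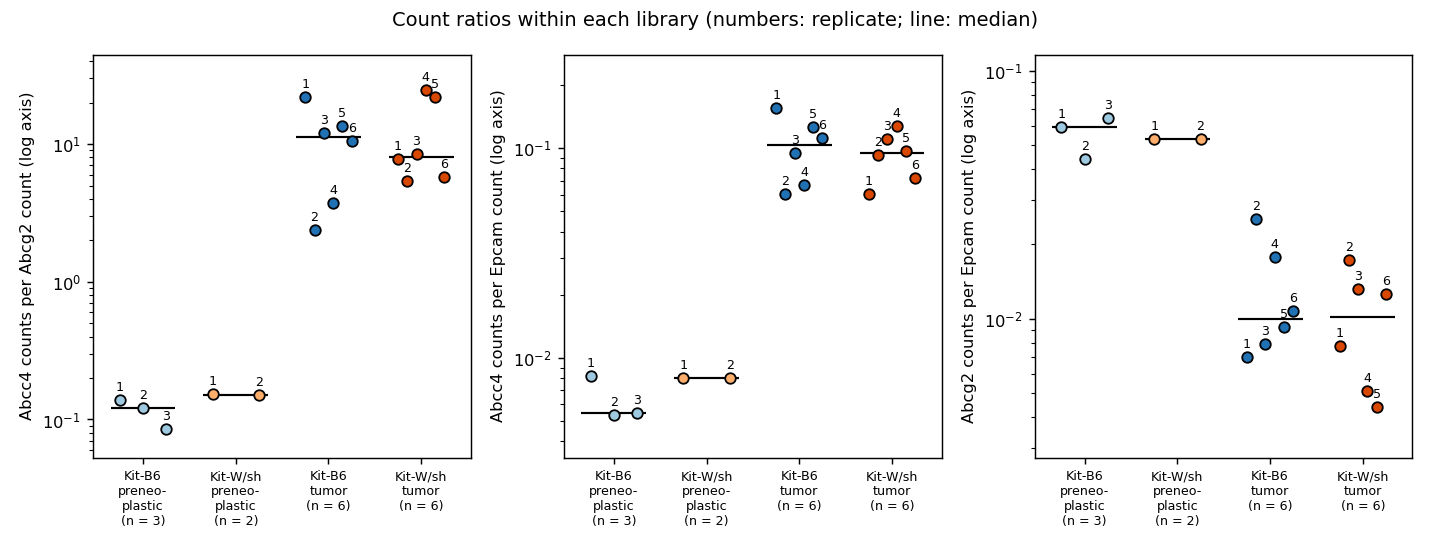
Ratios of counts within each library on log axes (Abcc4 per Abcg2, Abcc4 per Epcam and Abcg2 per Epcam), with a column per group, a point per library numbered by replicate, and a line at the median. Abcc4 counts per Abcg2 count lie between 0.0846 and 0.152 in the 5 preneoplastic libraries and between 2.39 and 24.8 in the 12 tumors.

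Abcb9 differed between stages in Kit-W/sh by the test, and less firmly than the other 2 genes. It stood at 62.3, 120 and 135 CPM in Kit-B6 preneoplastic colon (106 ± 38.3, SD, n = 3) and at 85 and 81.2 CPM in Kit-W/sh preneoplastic colon (83.1 ± 2.69, SD, n = 2). Kit-B6 tumors ran from 43.6 to 144 CPM with a median of 125 (115 ± 37.3, SD, n = 6). Kit-W/sh tumors ran from 131 to 316 CPM with a median of 162 (202 ± 82.2, SD, n = 6). The Kit-B6 stages overlapped, with 3 of 6 tumors above the preneoplastic median, and the Kit-W/sh stages did not. The log2 difference was 0.12 ± 0.38 in Kit-B6 (95% interval -0.69 to 0.93; edgeR adjusted p = 0.821) and 1.28 ± 0.48 in Kit-W/sh (2.43-fold; 95% interval 0.27 to 2.28; edgeR adjusted p = 0.0417). The difference between these 2 values was 1.16 ± 0.6 (95% interval -0.1 to 2.42; edgeR interaction adjusted p = 0.66), so the genotypes were not shown to differ in their stage difference. Without the library labelled Kit-W/sh tumor 2 the Kit-W/sh value was 1.36 (adjusted p = 0.0345). Reference gene scaling, an alternative here and below, rested on only 2 measured genes, Rpl13a and Tfrc. Rpl13a itself differed by -0.51 ± 0.22 between Kit-W/sh stages in the main fit (edgeR adjusted p = 0.0772). The Kit-W/sh call was lost with the replicate number as a block (0.74, adjusted p = 0.197), with reference gene scaling (1.41, adjusted p = 0.0663), and without Kit-W/sh tumor 4 (1.11, adjusted p = 0.074), tumor 6 (1.14, adjusted p = 0.0729), preneoplastic 1 (1.32, adjusted p = 0.184) or preneoplastic 2 (1.25, adjusted p = 0.186).

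Abcb4 sat close to the counting floor. Its counts were 1, 3 and 8 in Kit-B6 preneoplastic colon and 3 and 4 in Kit-W/sh preneoplastic colon, so 3 of these 5 libraries were at or under the floor. In tumors its counts were 23, 5, 16, 11, 24 and 13 in Kit-B6 and 13, 11, 6, 9, 11 and 13 in Kit-W/sh. Summed over a group, this gave 6.08 CPM (of unscaled totals) in Kit-B6 preneoplastic colon (12 counts; 95% exact Poisson interval 3.14 to 10.6) and 4.87 in Kit-W/sh preneoplastic colon (7 counts; 1.96 to 10). The sums were 15.6 CPM in Kit-B6 tumors (92 counts; 12.6 to 19.1) and 9 CPM in Kit-W/sh tumors (63 counts; 6.92 to 11.5). The stages overlapped in both genotypes. The log2 difference was 1.1 ± 0.51 in Kit-B6 (95% interval 0.01 to 2.18; edgeR adjusted p = 0.0927) and 0.63 ± 0.61 in Kit-W/sh (95% interval -0.66 to 1.93; edgeR adjusted p = 0.416). The Kit-B6 value passed the test without Kit-B6 preneoplastic 3 (1.95, adjusted p = 0.0267) and with unscaled library totals (1.31, adjusted p = 0.0489). RefSeq also lists Abcb4 as an older name of Abcb1a, a drug exporter of the gut, and the position of the amplicon was not given, so the symbol is used as it stands in the count tables.

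**Figure D3:**
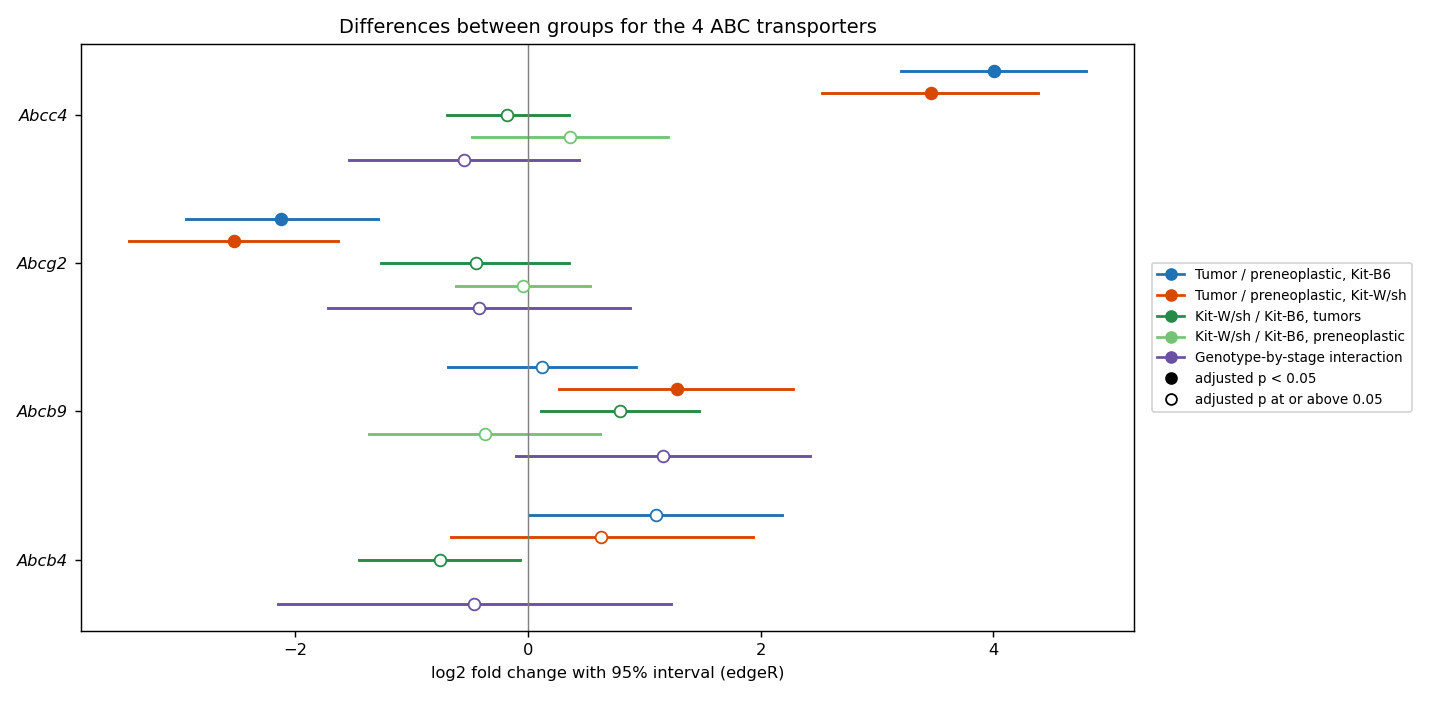
Log2 fold change of each ABC transporter in the 5 comparisons, with the 95% interval from edgeR as a line; filled points passed the adjusted threshold of 0.05 and open points did not. Abcc4 (4.01 and 3.46) and Abcg2 (-2.12 and -2.53) are filled in both stage comparisons, Abcb9 is filled in Kit-W/sh (1.28), and Abcb4 has no value in preneoplastic colon because it was below the count filter there.

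Between genotypes, none of the 4 members passed the test in tumors, where edgeR called 0 of 799 genes (0%), 109 had an unadjusted p under 0.05, and DESeq2 called 27 genes, none of them a member. Abcb9 and Abcb4 lay in opposite directions. Abcb9 was 0.79 ± 0.31 higher in Kit-W/sh tumors on the log2 scale (95% interval 0.11 to 1.47; edgeR adjusted p = 0.297), and all 6 Kit-W/sh tumors lay above the Kit-B6 median. Leaving out 1 library gave 0.6 to 0.87 for Abcb9. The value was 0.6 without Kit-B6 tumor 1 or Kit-W/sh tumor 4, and 0.65 without Kit-W/sh tumor 6. Abcb4 differed by -0.76 ± 0.32 (95% interval -1.45 to -0.07; edgeR adjusted p = 0.323), and 0 of 6 Kit-W/sh tumors lay above the Kit-B6 median. Among 4 two-sided exact permutation tests, 1 per member, of the mean log2(CPM + 1) in these 6 against 6 libraries, the results were a difference of 0.81 for Abcb9 (unadjusted p = 0.0173) and -0.66 for Abcb4 (unadjusted p = 0.0325), where the smallest p possible was 0.00216. For Abcb4, leaving out 1 library raised that p above 0.05 in 6 of 12 cases, namely Kit-B6 tumor 1, 3, 5 or 6 and Kit-W/sh tumor 3 or 4, with p from 0.0563 to 0.0649. Genotypes overlapped for all 4 members, and 0.626% of genes tested did not overlap. Without the library labelled Kit-W/sh tumor 2, the genotype differences in tumors were 0.87 for Abcb9 (edgeR adjusted p = 0.173), -0.77 for Abcb4 (0.25), -0.13 for Abcc4 (0.803) and -0.6 for Abcg2 (0.431), and the unadjusted exact permutation p was 0.0216 for Abcb9 and 0.0476 for Abcb4. The summed level of the 5 neutrophil markers measured also ran higher in Kit-W/sh tumors, at 386 to 941 CPM against 76.2 to 389 CPM, with 0 of 4 tested markers called, and its part in the Abcb9 and Abcb4 values was not tested.

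Abcc4 and Abcg2 showed smaller differences between genotypes than between stages. In tumors, Abcc4 differed by -0.18 ± 0.24 (95% interval -0.7 to 0.35; edgeR adjusted p = 0.775) and Abcg2 by -0.45 ± 0.37 (95% interval -1.26 to 0.35; edgeR adjusted p = 0.598). The exact permutation tests gave -0.12 for Abcc4 (unadjusted p = 0.662) and -0.41 for Abcg2 (unadjusted p = 0.323). In preneoplastic colon, 3 members passed the count filter and none passed the test, against 1 of 777 genes (0.129%). The gene called was Irf7, an interferon regulatory factor, named here after its value was seen. All 4 members overlapped between the genotypes, and 29.7% of genes tested did not. Abcc4 differed by 0.36 ± 0.35 (95% interval -0.48 to 1.2), Abcg2 by -0.04 ± 0.24 (95% interval -0.62 to 0.53) and Abcb9 by -0.37 ± 0.41 (95% interval -1.37 to 0.62), with edgeR adjusted p of 0.736, 0.959 and 0.793. The genotype-by-stage interaction called 0 of 869 genes (0%) by edgeR, with 63 at an unadjusted p under 0.05 and 1 by DESeq2. It was -0.55 ± 0.47 for Abcc4 (adjusted p = 0.854), -0.42 ± 0.61 for Abcg2 (adjusted p = 0.918) and -0.46 ± 0.8 for Abcb4 (adjusted p = 0.938).

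The members also varied from tumor to tumor. The highest Kit-B6 tumor exceeded the lowest 3.24-fold for Abcc4, 3.14-fold for Abcg2, 3.3-fold for Abcb9 and 2.66-fold for Abcb4. In Kit-W/sh tumors these ratios were 2.07, 2.93, 2.41 and 2.44. The SD of log2 CPM was 0.71 for Abcg2 in Kit-B6 and 0.67 in Kit-W/sh tumors, wider than 68.2% and 81.9% of genes. For Abcc4 it was 0.57 and 0.38, wider than 56.3% and 53.9% of genes.

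Abcc4 and Abcg2 tended to run in opposite directions across the 12 tumors, with Pearson's r = -0.66 (permutation p = 0.0209) and Spearman's rho = -0.67 (permutation p = 0.02). Over the 6 pairs of members computed, the Benjamini-Hochberg values were 0.125 and 0.12, so the relation did not pass the correction. It was -0.52 without the 2 tumors farthest from the median, -0.83 within Kit-B6 and -0.64 within Kit-W/sh. The other 5 pairs had r between -0.42 and 0.44, with Benjamini-Hochberg values of 0.348 or more. Within the 6 Kit-B6 tumors, r was 0.96 for Abcb4 with Abcc4 and -0.89 for Abcb4 with Abcg2, and in the 6 Kit-W/sh tumors these values were -0.47 and 0.06. The Kit-B6 pair of values was picked as the largest in size within a genotype. They rest on 6 tumors with 5 to 24 Abcb4 counts each and were not tested.

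The genes whose levels followed each member most closely across the 12 tumors were taken as the 3 with the highest Pearson's r of log2(CPM + 1) among 798 genes, as a description. For Abcg2 they were Ceacam18 (r = 0.96, rho = 0.92), Tmigd1 (r = 0.91, rho = 0.83) and Thbs4 (r = 0.89, rho = 0.8). For Abcc4 they were Prrc2b (r = 0.88, rho = 0.88), Traf4 (r = 0.84, rho = 0.85) and Ldlrad4 (r = 0.83, rho = 0.8). For Abcb9 they were the zinc transporter Slc39a14 (r = 0.9, rho = 0.72), Slc35f2 (r = 0.81, rho = 0.52) and Pdxk (r = 0.75, rho = 0.58). Abcb4, with 5 to 24 counts per tumor, had Ppfibp2 (r = 0.81), Fbrsl1 (r = 0.78) and Itgb1 (r = 0.75). Over all 17 libraries, where the stages separate the points, Abcc4 was closest to Nfe2l3 (r = 0.98), Wfdc18 (r = 0.97) and Prrc2b (r = 0.96), and Abcg2 to Fap, Ceacam20 and Tsc22d3 (r = 0.97 each). Abcb9 was closest there to Il6 (r = 0.72), Slc39a14 (r = 0.72) and Afp (r = 0.7). Preneoplastic means in Kit-B6 and Kit-W/sh were 3.37 and 7.75 CPM for Il6 and 1.81 and 0 CPM for Afp. The counting floor in those libraries was 4.13 to 5.5 CPM, so both r values rest partly on counts near or under it.

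Of 49 other ABC transporters on the list, the panel measured Tap1 and Tap2, which together carry peptides into the endoplasmic reticulum. Tap1 stood at 361, 504 and 353 CPM in Kit-B6 and at 414 and 399 CPM in Kit-W/sh preneoplastic colon. Kit-B6 tumors held 229 ± 131 CPM (SD, n = 6) and Kit-W/sh tumors 207 ± 131 CPM (SD, n = 6), with log2 differences of -0.83 ± 0.48 (edgeR adjusted p = 0.169) and -0.97 ± 0.54 (edgeR adjusted p = 0.159). Tap2 had 1, 3, 0 and 4 counts in the 4 groups, too few for any comparison. Around Tap1, 4 of the 12 tested peptide loading genes fell in Kit-B6 tumors and none rose, and in Kit-W/sh tumors 6 fell and 1 rose. Of all 869 genes tested, 18.9% fell and 22.2% rose in Kit-B6, and 18.8% fell and 20.9% rose in Kit-W/sh. Medians were -0.5 and -0.73, beside 0 and 0.08 for all genes. B2m (beta-2 microglobulin, part of every MHC class I complex) fell in both, with log2 differences of -1.90 ± 0.27 and -0.98 ± 0.31. The immunoproteasome subunit Psmb9 fell with differences of -1.48 ± 0.41 and -1.70 ± 0.46. The B2m call in Kit-W/sh was lost with reference gene scaling (-0.76, adjusted p = 0.215), unscaled totals (adjusted p = 0.0702), scaling on the 9 last-listed genes of the tables (adjusted p = 0.122), the replicate block (-0.83, adjusted p = 0.0931), and without preneoplastic 1 (adjusted p = 0.107) or 2 (adjusted p = 0.102). The Psmb9 call was lost in both genotypes with reference gene scaling (adjusted p = 0.068 and 0.0577), in Kit-B6 with the block (-1.15, adjusted p = 0.0648) and without preneoplastic 2 (adjusted p = 0.0739), and in Kit-W/sh without preneoplastic 1 (adjusted p = 0.0699) or 2 (adjusted p = 0.0554).

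Genes of the compartments and substrates of the transporters were called in both directions between stages. The shares called over all 869 genes were 22.2% higher and 18.9% lower in Kit-B6 tumors, and 20.9% and 18.8% in Kit-W/sh tumors. Among 9 lysosome genes tested, 4 rose and 2 fell in Kit-B6 tumors (median 0.38) and 3 rose and 3 fell in Kit-W/sh tumors (median 0.43). The lysosomal membrane protein Lamp2 rose by 1.61 ± 0.33 and 1.91 ± 0.40, and the protease Ctss fell (-0.81 ± 0.29 and -1.25 ± 0.32). Among 8 prostaglandin and cyclic AMP genes, 2 rose and none fell in Kit-B6 (median 0.18), and 2 rose and 1 fell in Kit-W/sh (median 0.54). The cyclic AMP phosphodiesterase Pde4b rose by 0.89 ± 0.27 and 1.10 ± 0.32. Hpgd, which breaks down prostaglandins, fell by 2.24 ± 0.71 in Kit-W/sh (edgeR adjusted p = 0.0203), and its value in Kit-B6 was -1.39 ± 0.64 (edgeR adjusted p = 0.0897). Ctss lost its call with reference gene scaling (adjusted p = 0.192 and 0.0687) and the replicate block (adjusted p = 0.107 and 0.0564) in both genotypes, and without any of several single libraries, with the smallest value, -0.39, without Kit-B6 preneoplastic 1. Pde4b lost its Kit-B6 call with the block (0.71, adjusted p = 0.0514), in a fit of Kit-B6 alone (adjusted p = 0.0626) and without preneoplastic 2 (adjusted p = 0.0612). It lost its Kit-W/sh call with reference gene scaling (adjusted p = 0.0728) and without preneoplastic 1 (adjusted p = 0.168). Hpgd lost its Kit-W/sh call with reference gene scaling (adjusted p = 0.0519), the block (adjusted p = 0.0549) and without preneoplastic 1 (adjusted p = 0.108) or 2 (adjusted p = 0.0856), and gained one in Kit-B6 without tumor 4 (-1.98, adjusted p = 0.0113). Both measured genes of 29 on the xenobiotic and oxidant list rose: the transcription factor Nfe2l3 by 5.57 ± 0.59 and 4.10 ± 0.63, and the glutathione transferase Gsta4 by 2.51 ± 0.40 and 2.03 ± 0.47. The Kit-W/sh call of Gsta4 was lost without preneoplastic 2 (1.93, adjusted p = 0.0509).

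The panel also held 14 solute carriers, the other large class of membrane transporters. Of the 11 tested, 1 rose and 5 fell in Kit-B6 tumors (median -0.52), and 2 rose and 3 fell in Kit-W/sh tumors (median -0.41). Over all 869 genes, 22.2% rose and 18.9% fell in Kit-B6, and 20.9% rose and 18.8% fell in Kit-W/sh. The amino acid carrier Slc7a8 rose by 3.30 ± 0.52 and 2.81 ± 0.60 (SE). Its mean level went from 48.5 ± 17.9 to 479 ± 290 CPM (SD) in Kit-B6 and from 55.1 ± 3.78 to 387 ± 151 CPM (SD) in Kit-W/sh. Slc24a3, a sodium, calcium and potassium exchanger, fell (-1.72 ± 0.59 and -2.82 ± 0.65), and its Kit-B6 call was lost with reference gene scaling (-1.63, adjusted p = 0.0555), with unscaled totals (-1.47, adjusted p = 0.0523), and without tumor 1, 5 or 6 or preneoplastic 1 (-1.31, adjusted p = 0.139). Its Kit-W/sh call was lost without preneoplastic 2 (-2.3, adjusted p = 0.065). Of 5 lipid and sterol genes, 1 rose and none fell in Kit-B6, and 2 rose and 2 fell in Kit-W/sh. Lpcat4, which remodels phosphatidylcholine, rose in both genotypes (1.83 ± 0.32 and 3.01 ± 0.41).

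**Figure D4:**
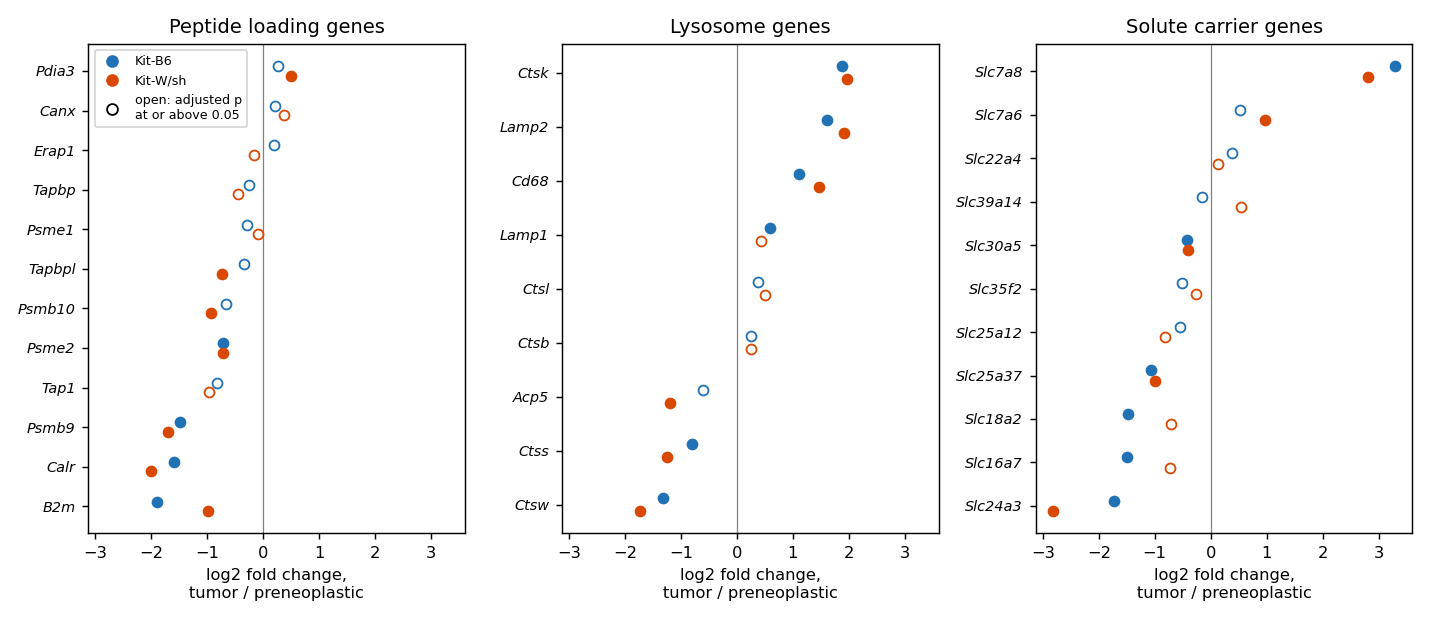
Log2 fold change of tumor over preneoplastic colon for each tested gene of the peptide loading, lysosome and solute carrier lists, a row per gene, with Kit-B6 in blue and Kit-W/sh in orange; filled points passed the adjusted threshold of 0.05 and open points did not. B2m (-1.90 and -0.98) and Psmb9 (-1.48 and -1.70) lie left of 0, and Lamp2 (1.61 and 1.91) and Slc7a8 (3.30 and 2.81) right of 0.

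**Figure D5:**
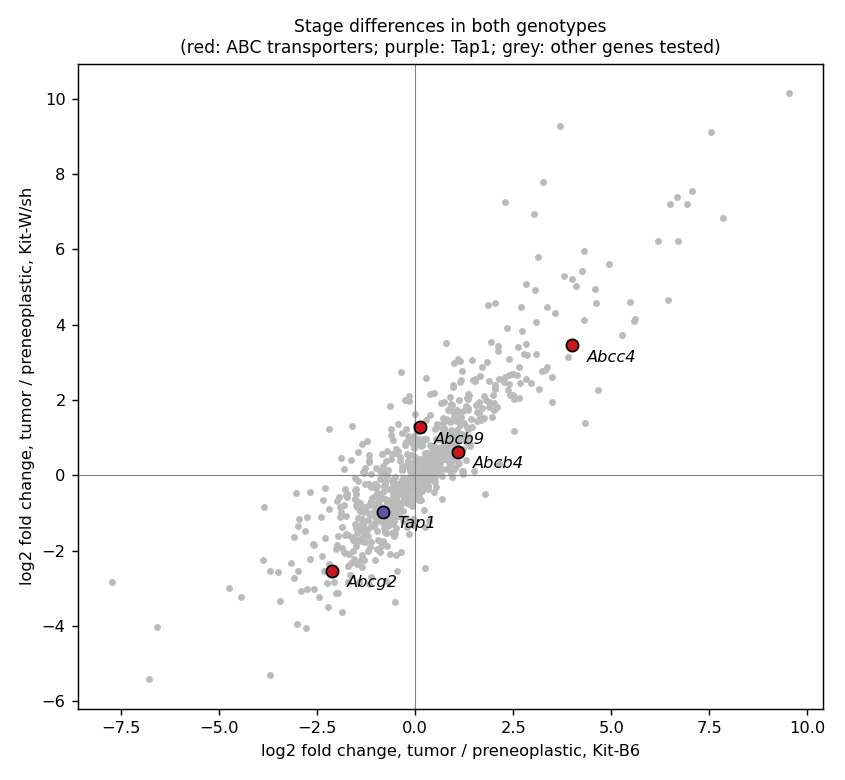
Stage difference in Kit-W/sh against the stage difference in Kit-B6, both as log2 fold change of tumor over preneoplastic colon, with the 4 ABC transporters in red, Tap1 in purple and the other genes tested in grey. Abcc4 lies at 4.01 and 3.46, Abcg2 at -2.12 and -2.53, Abcb9 at 0.12 and 1.28 and Abcb4 at 1.1 and 0.63.

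Markers of the cell types that the samples could hold are given beside the transporters. For all 869 genes tested, the shares called higher and lower in tumors were 22.2% and 18.9% in Kit-B6 and 20.9% and 18.8% in Kit-W/sh. All 3 measured genes of the differentiated colonocyte list (28 genes) fell in both genotypes, as Abcg2 did: the log2 differences were -1.48 and -1.52 for Ceacam1, -1.72 and -2.41 for Ceacam20 and -3.71 and -5.30 for Car4, whose Kit-B6 call was lost without preneoplastic 1 (-2.92, adjusted p = 0.0796). Their summed level was 65925 to 156525 CPM in Kit-B6 and 115053 to 116854 CPM in Kit-W/sh preneoplastic colon, and 15235 to 49809 and 15198 to 27864 CPM in the tumors. The crypt progenitor and Wnt target list had 3 of its 25 genes measured. Of these, Cd44 rose in both genotypes (1.89 ± 0.41 and 2.50 ± 0.51), as Abcc4 did. Birc5 was not called in either (-0.09 ± 0.36, edgeR adjusted p = 0.855, and 0.55 ± 0.44, edgeR adjusted p = 0.319). Of 9 macrophage and monocyte markers, 5 rose and 1 fell in Kit-B6 and 7 rose and 1 fell in Kit-W/sh tumors, and their sums went from 1417 to 1567 and 1445 to 1779 CPM in preneoplastic colon to 1709 to 4836 and 3341 to 4964 CPM in tumors. Of 4 neutrophil markers tested, all rose in both genotypes, with sums of 13.9 to 27.5 and 18.1 to 20.6 CPM before and 76.2 to 389 and 386 to 941 CPM in tumors, and Mpo at 0 in all preneoplastic libraries. Fibroblast and stroma markers rose in 3 and fell in 1 of 5 in Kit-B6, and rose in 3 and fell in 2 in Kit-W/sh, with sums of 2507 to 5041 CPM before and 4704 to 20031 CPM in tumors. T cell markers fell in 4 of 11 in Kit-B6 and 1 of 11 in Kit-W/sh, and B and plasma cell markers in 5 of 7 and 0 of 7. Medians were -1.17 and -0.35 for T cell markers and -2.99 and -2.54 for B and plasma cell markers. The interaction called 0 genes of either list. B and plasma cell markers summed to 163 to 2799 CPM in Kit-B6 and 169 to 322 CPM in Kit-W/sh preneoplastic colon. In tumors these sums were 38.1 to 733 and 21.1 to 133 CPM. Mast cell markers (8 of 11 measured) summed to 376 to 592 CPM in Kit-B6 and 177 to 191 CPM in Kit-W/sh preneoplastic colon, with Tpsab1 at 0 in both and Cpa3 and Ms4a2 at 0 in Kit-W/sh, and to 331 to 1011 and 202 to 1275 CPM in the tumors. Of 7 tested, only Hdc was called, higher in tumors of both genotypes (2.72 ± 0.49 and 3.84 ± 0.60). The library labelled Kit-W/sh tumor 2 held the highest Cpa3 (460 CPM) and Kit (258 CPM) of the Kit-W/sh tumors. No smooth muscle or enteric neuron and glia marker was on the panel. The part of these cell types in the transporter differences was not tested.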

How the data were processed

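RNA of 17 bulk colon samples was read with a targeted amplicon panel. The authors deposited 1 table of whole-number counts per panel gene and sample, and the headers do not say whether reads or molecular tags were counted. The submitters' processing notes name mm9 and DESeq2 with no role, and the aligner, counter and filters are not given in the sources used here. Of 993 entries, 5 control amplicons, at 0 in all libraries, were left out. Groups and replicate numbers came from the titles, which do not say that samples are separate animals, so the spread behind each p-value may be technical. Counts were tested with edgeR 4.0.16 (R 4.3.3; trimmed mean of M-values scaling, filterByExpr at its count minimum of 10 and total minimum of 15, robust quasi-likelihood F test, Benjamini-Hochberg adjustment over all genes tested, threshold 0.05). The stage and interaction tests used all 17 libraries, and each genotype test used its own stage. Intervals are 95% intervals from the fit's t quantile, and log2(CPM + 1) used a pseudocount of 1. Fitting was tested on simulated counts. Alternatives were DESeq2 1.42.0, other scalings and filters, a replicate block, other sets of libraries, a pseudocount of 5 and leaving out each library. The text names the 4 members in every comparison, up to 4 genes per fixed list by smallest p, the 3 genes most like each member, and Kit and Cpa3 as a label check. A result of the crypt progenitor list is not reported here. Members and lists were chosen with earlier results of these data known. Same-numbered libraries correlated between -0.19 and 0.4 in their deviations from the group means, above 0.1 for 3 of 6 tumor numbers and not for every number. The titles state no animal or batch shared by a number, so the main tests did not take the numbers as pairs. These correlations cannot tell whether same-numbered libraries share a batch.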

Additional observations from a re-analysis of the deposited data

Results flagged for a closer look

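Kit-B6 tumor 1 had the lowest Abcb9 level of its group, at 43.6 CPM, far from the other 5 tumors (111 to 144 CPM). Its gap to the nearest tumor was 0.674 of the group's range, above the critical value of 0.625. Chance gives about 1 such sample in 20 groups, and 8 groups of values were examined.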

How the results depend on the processing

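Abcc4 and Abcg2 kept their direction and their call in both stage comparisons under every alternative run, with log2 differences of 3.84 to 4.37 (Kit-B6) and 3.29 to 3.71 (Kit-W/sh) for Abcc4, and of -2.35 to -1.86 and -2.68 to -2.27 for Abcg2. Unscaled totals moved the median of all genes to 0.24 in Kit-B6 and 0.34 in Kit-W/sh, and the share of calls that were higher from 54.1% to 73% and from 52.8% to 70.1%. That share was 66.1% and 61.1% with reference gene scaling and 62.6% and 70% with scaling on 9 last-listed genes, an alternative chosen after seeing the data, as were the ratios without each library.

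DESeq2 called 27 genes between tumors, 21 between preneoplastic genotypes and 1 for the interaction. The preneoplastic count was 0 with unscaled totals, 0 with the 9 genes, 0 with all 17 libraries and 0 with the replicate block, and 0 to 16 when 1 library was left out (16 without Kit-B6 1, 0 without Kit-B6 3, Kit-W/sh 1 or Kit-W/sh 2). Reference gene scaling gave 180 stage calls in Kit-W/sh, and leaving out 1 library gave 132 to 367 there, 265 to 425 in Kit-B6, 0 to 2 for the interaction (2 without Kit-B6 preneoplastic 1) and 0 in tumors. The fewest Kit-W/sh calls came without preneoplastic 1 (132) or 2 (159), each leaving 1 library whose spread is assumed to be that of the other groups.

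With the replicate block, the log2 difference was 0.74 for Abcb9 between Kit-W/sh stages (adjusted p = 0.197), -0.22 for Abcb9 between Kit-B6 stages and 0.08 for Abcg2 between preneoplastic genotypes, and no other member's call or direction changed. Of the 6 tumor numbers, 3 correlated best with their own number. Abcb9 in Kit-W/sh was 1.41 with reference gene scaling and 1.11 to 1.38 when 1 library was left out. In Kit-B6 it was -0.12 to 0.34 then, and -0.12 without preneoplastic 1. Abcb4 in Kit-B6 was 1.31 with unscaled totals and 0.7 to 1.95 when 1 library was left out. Leaving out 1 library moved the preneoplastic genotype difference of Abcg2 to -0.24 to 0.09, turning it to 0.09 without Kit-B6 preneoplastic 1 and 0.01 without 3. The permutation differences in tumors ran from -0.84 to -0.53 for Abcb4 and from -0.32 to 0.02 for Abcc4, which was 0.02 without Kit-B6 tumor 1. For 26 genes of the lists in the stage comparisons, 764 alternative values kept their call, 90 lost it, 4 gained one and none turned direction. The causes were not tested. Abcb4 had the fewest counts of the 4 members, at 1 to 24 per library.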
